A study of Homo sapiens with 24 samples.

Results

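PC3 is an established prostate cancer cell line that was derived from a bone metastasis. The data described here are the 4 arrays, of 24 in the series, on which PC3 cells treated for 24 hours with 0.5 µM I-BET762 (GSK525762A in the labels) are set against PC3 cells given DMSO vehicle for the same time, with 2 independent biological replicates of each. Probe sets were taken where the mean signal (geometric mean of the 2 arrays) was at least 100 in either group, which held for 26774 of 54613 non-control probe sets; 23990 reached it in both groups, 1418 only at 0.5 µM and 1366 only in vehicle. At that limit the highest value left out was 99.999 and the lowest kept was 100.006. The values are MAS5 signals from Affymetrix U133 Plus 2.0 arrays, an intensity on a linear scale that was taken to log2. The series also holds PC3 at 10 µM, NCI-H660 (a neuroendocrine prostate cancer line) and arrays labelled LNCaP and VCaP (lines from prostate cancer metastases), each with the same 3 treatments and 2 replicates. ERG, the fusion partner known to be overexpressed in VCaP, read 2867 to 7085 on the 6 arrays labelled LNCaP and 5.86 to 28.3 on the 6 labelled VCaP, and ETV1, known to be overexpressed in LNCaP, read 10.8 to 112.5 and 237 to 643.5 on the same arrays. Both genes go against the labels, so these arrays are called by their labels throughout. All cells are of cultured lines, and all PC3 groups are of a single line, so the replicates carry no difference between patients.

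BET proteins such as BRD2, BRD3 and the testis-restricted BRDT bind acetylated lysines on histone tails through paired bromodomains and recruit P-TEFb, the kinase that releases paused RNA polymerase II into elongation. I-BET762 occupies the bromodomain pocket and displaces these proteins from chromatin. MYC and inflammatory genes driven by NF-kB are among the genes known to depend on BET proteins in many cell types, while HEXIM1, an inhibitor of P-TEFb, is commonly induced when they are blocked. PC3 cells lack much of the luminal, androgen-driven program of the prostate and carry a mixed epithelial and mesenchymal profile with abundant cytokines.

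Of 15 genes listed as typical of PC3, 14 were detected. Among them were the keratins KRT8 and KRT18, the mesenchymal filament protein VIM, the caveolar protein CAV1 and the receptors EGFR, MET and AXL. Detection alone cannot tell PC3 from the other lines, as KRT8 read 2477 to 20297 on their 18 arrays. PLAU, also of the list, read 33.85 to 213.7 on those arrays and 5129 to 11924 on the 4 PC3 arrays. The prostate antigen KLK3 (PSA) lay under 100 on all 4 arrays, between 7.89 and 47.2. However, 8 of the 15 luminal prostate genes with a probe set were detected, and none of them passed. Of marker genes of other cell types with a probe set, 3 of 12 were detected for neuroendocrine cells, 2 of 10 for leukocytes and 3 of 14 for stroma and endothelium, and the summed signal of the leukocyte markers was 819 and 796 at 0.5 µM and 951 and 693 in vehicle. The neuroendocrine enolase ENO2 rose by 0.55 on the log2 scale, the endothelial adhesion molecule PECAM1 fell by 0.98, and the other 6 of these detected markers did not pass. The leukocyte antigen PTPRC, the neuroendocrine granule protein CHGA and the stromal proteoglycan DCN were under 100 on each of the 4 arrays. Array medians were 89.3 and 86.5 at 0.5 µM and 89.4 and 83.6 in vehicle, and over the detected probe sets the log2 signals of replicates correlated at 0.979 at 0.5 µM and 0.982 in vehicle. With 2 arrays in a group the precision of each mean is limited, and an exact two-sided permutation test of a single gene cannot go below p = 0.333, so tests rest on limma fitted across all probe sets.

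At 0.5 µM, 295 probe sets were called higher (1.1% of the 26774 detected) and 234 lower (0.874%) than in vehicle, 1.98% in all. A call needed a limma adjusted p under 0.1, more than a 2-fold difference and a mean at the signal floor of 100 in either group, with the variance of each probe set shared by all 24 arrays. On the log2(signal + 50) scale the split was 207 higher and 362 lower. The called probe sets belonged to 388 named genes, none of them with probe sets called in both directions. The risen probe sets came from lower levels, with a median of 299 at 0.5 µM and 117 in vehicle, and the fallen ones from higher levels, with 125.0 at 0.5 µM and 424 in vehicle. All 529 had arrays that did not overlap between the groups, but so did 57.6% of all detected probe sets. The median log2 change was 0.013 over all detected probe sets, 1.34 over those called higher and -1.48 over those called lower. Taking for each gene its probe set with the highest mean signal, 123 of 11994 detected genes were called higher and 123 lower (1.03% each). Without the fold minimum 802 genes rose (6.69%) and 534 fell (4.45%) at the same adjusted p. This looser criterion, called passing below, is used for the gene lists, and both shares are the background for every list count below.

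**Figure D1:**
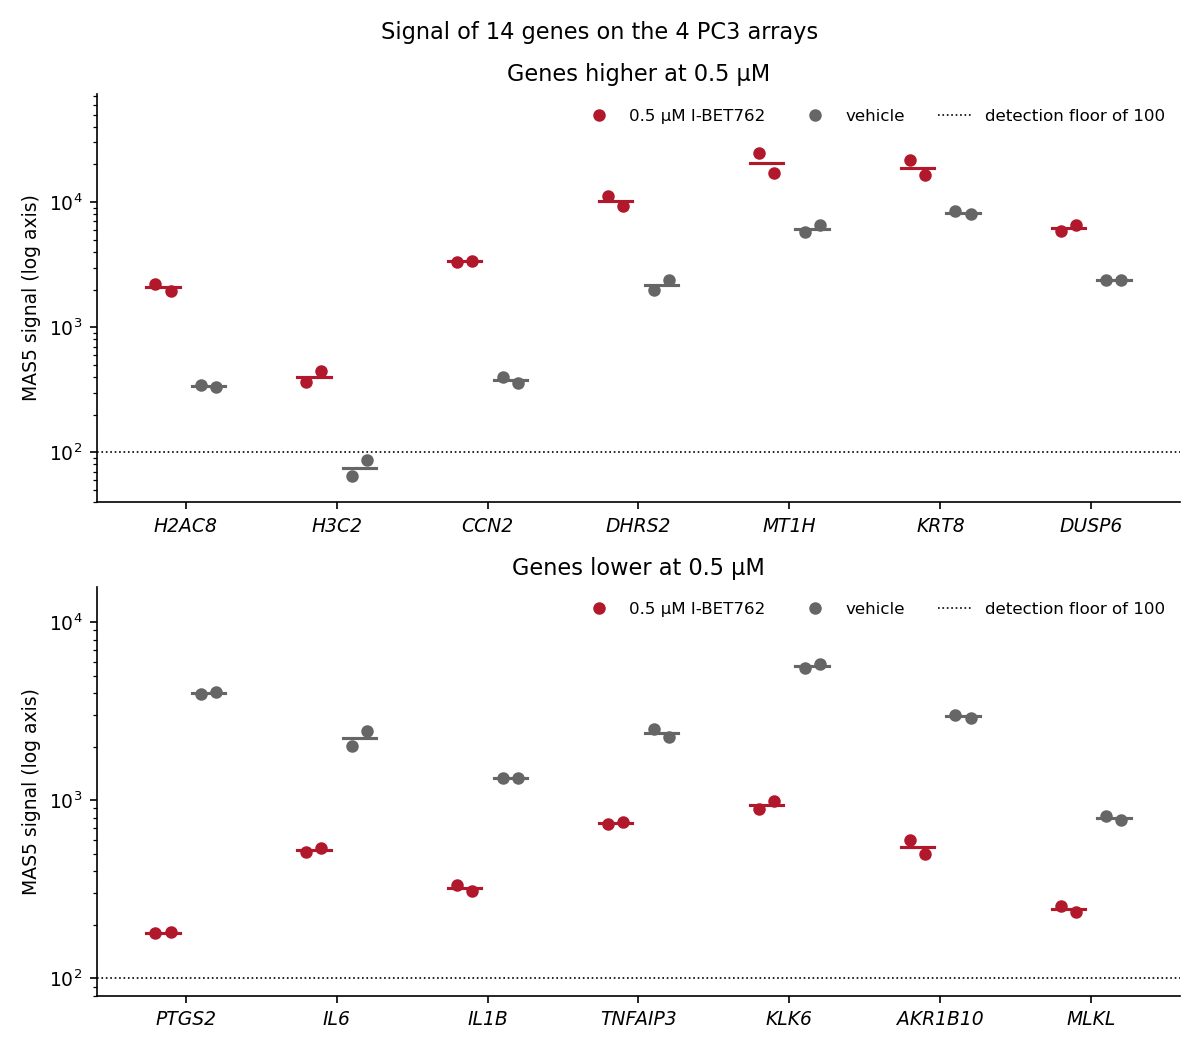
MAS5 signal (log axis) of 14 genes on the 4 PC3 arrays, with 7 genes that rose in the upper panel and 7 that fell in the lower. Red dots are the arrays at 0.5 µM I-BET762 and grey dots the vehicle arrays; bars are geometric means (n = 2 arrays), and the floor of 100 is dotted. In each of the 14 genes the red and grey dots do not overlap, and PTGS2 has the widest gap.

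Histone genes rose together, and of the gene lists examined theirs had the highest count of rises. Of 35 listed histone genes with a probe set, 25 were detected, and 19 of these rose and none fell, with a median log2 change of 1.16 over the 25 against 0.00 over all detected genes. With group means under 100 raised to 100 the median was 0.88. Both arrays at 0.5 µM lay above both vehicle arrays for 23 of the 25, compared with 31.1% of all detected genes. Of the 19 that rose 17 lie on chromosome 6, and H2BC21 on chromosome 1 and H1-10 on chromosome 3 are the others. All 4 core histones and the linker histone H1 were among them. The 6 detected members that did not pass were H3C6, H2AC15, H1-6, H3C3, H3C8 and H2BC14, all at signals of 251.5 or less, and 10 genes of the list were under the floor in both groups.

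H2AC8, which encodes a core histone H2A, had signals of 2210.2 and 1952 at 0.5 µM and 344.5 and 331.5 in vehicle. Both treated arrays were far above both vehicle arrays, a 6.15-fold rise (log2 change 2.62, SE 0.11, limma adjusted p = 1.14e-07). H3C2, a core histone H3 gene, read 362 and 443.5 at 0.5 µM and 64.7 and 86.5 in vehicle, where it was under the floor, so it was at least 4.01-fold higher (limma adjusted p = 7.92e-04). H4C8 (2046.5 and 2089 at 0.5 µM; 499 and 579 in vehicle) rose by 1.94 on the log2 scale. The H2B genes H2BC4 and H2BC21 rose by 1.78 and 1.71 and the H4 gene H4C5 by 1.69. The H1 genes H1-2 and H1-3 rose by 1.34 and 1.66, and H1-3 was at least 1.52-fold higher against a vehicle mean under the floor. The smallest rise that passed was that of H2BC12, at 16356 and 15117 with the compound and 10667 and 10065 without it (log2 change 0.60, SE 0.09). Left-out arrays moved the number of histones that passed between 15 and 19.

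Histone genes are short, similar in sequence and partly read by the same probe sets. Of the 27 detected probe sets of the list, 12 carry the suffix _s_at or _x_at, which marks probes that match more than 1 transcript, and 11 of these rose. Among the 15 other probe sets 10 rose, each from a different gene. Transcripts of the clustered histone genes usually end in a stem-loop in place of a poly(A) tail, and the labels state that poly(A) mRNA was extracted, while listing the molecule as total RNA. The share of these signals that comes from polyadenylated forms was not tested.

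The promoters of the 2 histone genes with the largest rise are shown because histone genes often share letters there. The 250 bases before the RefSeq start site (GRCh38.p14) were searched on both strands for TATAAA, the TATA box, and for CCAAT; the motifs do not overlap each other in these windows and are in capitals, printed in reverse complement where they lie on the other strand. H2AC8 is at chr6:26216671-26216920 on the plus strand and H3C2 at chr6:26032100-26032349 on the minus strand.
H2AC8: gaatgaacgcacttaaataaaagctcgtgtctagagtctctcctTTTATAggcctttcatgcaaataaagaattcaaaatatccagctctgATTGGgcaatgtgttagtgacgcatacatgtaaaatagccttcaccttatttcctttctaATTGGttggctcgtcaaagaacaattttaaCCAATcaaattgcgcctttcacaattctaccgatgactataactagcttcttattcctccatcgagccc
H3C2: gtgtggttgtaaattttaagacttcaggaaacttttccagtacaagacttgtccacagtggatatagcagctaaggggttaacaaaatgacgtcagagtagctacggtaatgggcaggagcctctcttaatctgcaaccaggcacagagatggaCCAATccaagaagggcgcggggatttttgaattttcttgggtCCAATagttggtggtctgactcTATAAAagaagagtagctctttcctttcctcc
TATAAA occurred in 15 of the 19 histone genes that rose (78.9%) and in 11.1% of all 27305 promoters in the table. CCAAT occurred in 14 of the 19 (73.7%) and in 33.0% of all. Over the 25 detected histone genes, TATAAA occurred in 17 (68.0%) and CCAAT in 20, so the letters are not particular to those that rose, and CCAAT was in all 6 that did not pass. In H3C2 the TATAAA starts 32 bases before the start site, whereas the match in H2AC8 lies at 206 bases before it and on the other strand. Presence of these letters is a description and no evidence of a bound factor.

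Cytokine and NF-kB genes fell in part, with IL6 and IL1B past 4-fold. Of 34 detected members 8 fell and none rose, with a median log2 change of -0.61, and 26 of the 34 had both arrays at 0.5 µM below both vehicle arrays, compared with 30.4% of all detected genes. IL24, IL7R, IL32, IL6, IL1B, TNFAIP3, NFKB1 and CXCL16 passed. With single PC3 arrays left out, 4 passed without vehicle replicate 1, 3 without vehicle replicate 2, 2 without 0.5 µM replicate 1 and 6 without 0.5 µM replicate 2, and 15 passed on the log2(signal + 50) scale.

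IL6, a cytokine that signals through STAT3, had signals of 514 and 540.0 at 0.5 µM and 2028 and 2442 in vehicle, a 4.22-fold fall in which the arrays stood well apart (log2 change -2.08, SE 0.62, limma adjusted p = 0.0955). IL1B, the proinflammatory interleukin-1 beta, read 336 and 309 at 0.5 µM and 1331 and 1329 in vehicle (log2 change -2.05, SE 0.46, limma adjusted p = 0.0306). TNFAIP3, which encodes the NF-kB feedback inhibitor A20, read 739 and 761 at 0.5 µM and 2528 and 2255 in vehicle, with a log2 change of -1.67 and a smaller error (SE 0.24, limma adjusted p = 0.00216). These 3 genes fell by similar amounts, and their adjusted p followed their errors in the shared fit. NFKB1, the p105 precursor of the p50 subunit, fell less, by 0.68 on the log2 scale. IL7R, the interleukin-7 receptor chain, was 7.59-fold lower, and IL24 was at least 2.48-fold and IL32 at least 1.73-fold lower, because their means at 0.5 µM were under the floor. Of the 26 members that did not pass, the chemokines had some of the largest changes. CXCL8 (interleukin-8) read 2304 and 2965 at 0.5 µM and 12293 and 12983 in vehicle (log2 change -2.27, limma adjusted p = 0.151), and CXCL6, CXCL1 and CXCL5 had log2 changes of -2.03, -1.46 and -1.22.

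PTGS2 (COX-2), the inducible enzyme that makes prostaglandin H2 from arachidonic acid, had the largest fall whose treated mean was above the floor. Its signals were 179 and 182 at 0.5 µM and 3957 and 4059 in vehicle. Both treated arrays were far below both vehicle arrays, a 22.2-fold fall (log2 change -4.47, SE 1.33, limma adjusted p = 0.0957). PTGES, which converts prostaglandin H2 to E2, read 1736 and 2249 at 0.5 µM and 3796 and 3998 in vehicle (log2 change -0.98, limma adjusted p = 0.0899). The other 12 of 14 detected genes of prostaglandin synthesis, breakdown and receptors did not pass, with PTGES3 at 0.06 and PTGER4 at -0.06, and the median of the 14 was -0.43. The adjusted p of both genes sat close to the threshold, PTGES was under the fold minimum, and 0 of the 14 passed when any single PC3 array was left out or when arrays were centred on their medians.

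The windows before the starts of PTGS2 and IL6 are shown as examples of genes that fell, searched on both strands for TATAAA and for the core of a kB site, taken as GGGA and CC with any 4 bases between them. PTGS2 is at chr1:186680424-186680673 on the minus strand and IL6 at chr7:22726950-22727199 on the plus strand.
PTGS2: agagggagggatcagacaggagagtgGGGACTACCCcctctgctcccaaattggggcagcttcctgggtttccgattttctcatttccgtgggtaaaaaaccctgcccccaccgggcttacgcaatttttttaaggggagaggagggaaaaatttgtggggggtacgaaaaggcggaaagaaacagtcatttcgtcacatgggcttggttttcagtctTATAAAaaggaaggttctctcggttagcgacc
IL6: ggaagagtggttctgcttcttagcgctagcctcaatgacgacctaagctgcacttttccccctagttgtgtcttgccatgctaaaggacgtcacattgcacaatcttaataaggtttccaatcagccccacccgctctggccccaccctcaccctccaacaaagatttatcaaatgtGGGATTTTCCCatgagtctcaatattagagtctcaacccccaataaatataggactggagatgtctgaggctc
The kB core was found 224 bases before the start of PTGS2, on the gene's strand, and 73 bases before that of IL6, where matches on both strands overlap. It occurred in 18 of the 27 detected cytokine and NF-kB genes with a promoter in the table (66.7%), against 22.1% of all promoters, and in 5 of the 7 of these that fell (71.4%). No binding was measured in this series.

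Of 42 detected interferon response genes 9 fell and IRF7 rose, with a median log2 change of -0.56, and 35 had both arrays at 0.5 µM below both vehicle arrays. Over all detected genes 4.45% fell and 30.4% had both arrays below. IFITM1, a membrane restriction factor, read 339 and 482 at 0.5 µM and 1329 and 1670.5 in vehicle (log2 change -1.88, SE 0.40, limma adjusted p = 0.0228). IFIH1 (MDA5), a sensor of double-stranded RNA, read 215 and 233 at 0.5 µM and 423 and 491 in vehicle (log2 change -1.03, SE 0.17, limma adjusted p = 0.00636). The immunoproteasome subunit PSMB8, DDX60 and the oligoadenylate synthase OAS3 were also called lower, by 1.25, 1.17 and 1.05 on the log2 scale. IFIT1 and IFI44L had changes of -1.57 and -2.46 and did not pass (limma adjusted p = 0.293 and 0.290). The number that fell depended on single arrays and lines: it was 1 without 0.5 µM replicate 1, 3 without vehicle replicate 2, 4 without either of the other PC3 arrays and 5 without the arrays labelled LNCaP, and 24 on the log2(signal + 50) scale.

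**Figure D2:**
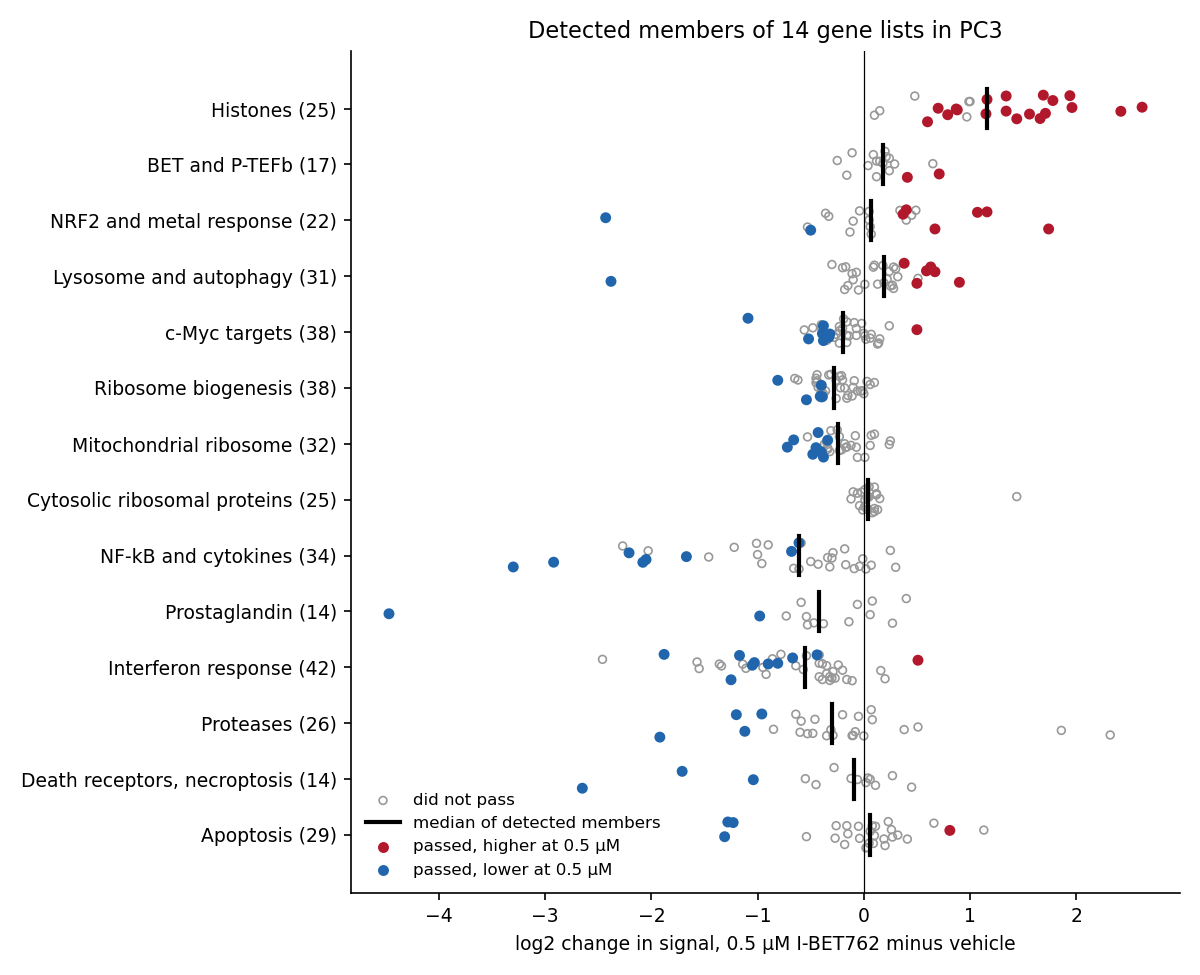
Log2 change in signal (0.5 µM I-BET762 minus vehicle) of the detected members of 14 gene lists in PC3, with the number detected in brackets. Each point is a gene, filled red or blue where it passed (limma adjusted p under 0.1) and open where it did not, and black bars are list medians. The histone points lie to the right of 0, with a median of 1.16, and the cytokine and interferon points mostly to the left, with medians of -0.61 and -0.56.

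Other secreted and surface proteins were among the 15 genes with the largest falls. KLK6, a kallikrein protease, read 898 and 992 at 0.5 µM and 5506.5 and 5852 in vehicle (log2 change -2.59, limma adjusted p = 0.0391). SCG5, a chaperone of the secretory pathway, read 68.2 and 83.3 at 0.5 µM and 1139 and 1212 in vehicle, at least 11.8-fold lower. DIO2, the deiodinase that activates thyroid hormone, fell 8.76-fold to 132 and 118.5 at 0.5 µM, against 1094 and 1099 in vehicle (limma adjusted p = 0.00143). SERPINB3, a serpin of squamous epithelia, was at least 6.21-fold lower, and its treated arrays read 62.9 and 6.17 against 624 and 617 in vehicle. AKR1B10, an aldo-keto reductase, and CEACAM6, a cell adhesion glycoprotein, fell 5.40-fold and 5.31-fold. F3 (tissue factor), which starts coagulation, fell 4.52-fold with unequal treated arrays of 181 and 543, against 1621 and 1241 in vehicle. The signalling regulator RGS7 was at least 7.38-fold lower, and the keratin KRT75 and the helicase DDX60L fell 3.90-fold and 3.85-fold.

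Genes of plasminogen activation and 2 proteases of the ADAM families fell. PLAU (urokinase) read 5201 and 5129 at 0.5 µM and 11739 and 11924 in vehicle (log2 change -1.20, SE 0.26, limma adjusted p = 0.0229), and its receptor PLAUR read 1647 and 1691 against 3259 and 3234 in vehicle (log2 change -0.96, limma adjusted p = 0.0184). ADAMTS6 and ADAM19 fell by 1.92 and 1.12, so 4 of 26 detected genes of the protease list fell and none rose. MMP1, interstitial collagenase, had the opposite sign, at 1493 and 1767 with the compound and 355 and 299.8 with vehicle, but did not pass (log2 change 2.32, SE 0.74, limma adjusted p = 0.123). The list counted 2 falls without either replicate of 0.5 µM or without vehicle replicate 1, and 1 without vehicle replicate 2.

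In the list of death receptor, necroptosis and pyroptosis genes 3 of 14 detected members fell, and in the apoptosis list 3 of 29 fell and 1 rose. Over all detected genes 4.45% fell and 6.69% rose at the same adjusted p. The 3 that fell in each list were also called, compared with 1.03% of all detected genes called lower. MLKL, the executioner of necroptosis, read 254 and 235 at 0.5 µM and 821 and 776 in vehicle, a 3.27-fold fall (log2 change -1.71, SE 0.26, limma adjusted p = 0.00299). FAS, a death receptor, fell 2.05-fold, and TNFRSF11B (osteoprotegerin), a decoy receptor for TRAIL and RANKL, was at least 5.75-fold lower. The other 11 of 14 detected death receptor, necroptosis and pyroptosis genes did not pass, and the median of the list was -0.09. In the apoptosis list, the BH3-only gene BIK fell 2.49-fold, the inflammatory caspase CASP4 2.44-fold and CFLAR (c-FLIP), which blocks caspase-8, 2.35-fold, whereas BCL2L11 (BIM), another BH3-only gene, rose 1.75-fold (891 and 931 at 0.5 µM; 527 and 514 in vehicle; limma adjusted p = 0.00107). BCL2 read 111 and 102 at 0.5 µM and 145 and 70.0 in vehicle, with overlapping arrays (log2 change 0.08, SE 0.72), and its sign turned without vehicle replicate 2 (-0.44). The median of the 29 detected apoptosis genes was 0.06. Only 3 of 11 detected probe sets of CFLAR and 1 of 4 of FAS were called lower. TNFRSF11B and CASP4 were lost whichever single PC3 array was left out, and MLKL, FAS, BIK, CFLAR and BCL2L11 passed in each of 15 alternatives that kept several lines in the fit.

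The largest rise with a vehicle mean above the floor was that of CCN2 (CTGF), a matricellular protein and a known target of YAP and TGF-beta signalling. It read 3332 and 3390 at 0.5 µM and 400.3 and 355 in vehicle, 8.91-fold higher with close replicates (log2 change 3.16, SE 0.26, limma adjusted p = 2.81e-05). DUSP6, the phosphatase of ERK that ERK signalling itself induces, read 5845 and 6538 at 0.5 µM and 2383 and 2366 in vehicle (log2 change 1.38, SE 0.30, limma adjusted p = 0.025). Only 1 of its 3 detected probe sets was called higher. DHRS2, a mitochondrial and nuclear short-chain reductase, read 11111 and 9332 at 0.5 µM and 1995 and 2364 in vehicle, 4.69-fold higher. PAG1, a lipid raft adaptor that recruits CSK, rose 3.82-fold, with 3 of its probe sets called, and the potassium-chloride cotransporter SLC12A4 rose 3.66-fold. LINC00513, a long noncoding RNA, rose 6.31-fold. KRT8, a keratin of simple epithelia, read 21622 and 16476 at 0.5 µM and 8449 and 8014.5 in vehicle (log2 change 1.20, limma adjusted p = 3.90e-04). RCBTB2, MRFAP1L2 and the microtubule-binding MAPRE2 rose 3.57-fold, 3.38-fold and at least 3.17-fold.

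Metallothioneins, small cysteine-rich proteins that bind zinc and copper, rose within the list of NRF2 targets and metal response genes. MT1H read 24878 and 16948 at 0.5 µM and 5779 and 6511 in vehicle (log2 change 1.74, SE 0.18, limma adjusted p = 2.36e-04). MT1X, MT1F and MT2A rose by 1.16, 1.07 and 0.67. The probe sets of MT1H, MT1X, MT1F and MT2A all have the suffix _x_at, and metallothionein transcripts resemble each other. The split between these genes is therefore uncertain, and their rises may not be separate readings. In all, 6 of 22 detected members rose, also TXNRD1 and PGD, and 2 fell, AKR1B10 and the NRF2 inhibitor KEAP1, with a median of 0.06. The number that rose was 3 without vehicle replicate 2 or 0.5 µM replicate 1, and AKR1B10 and KEAP1 were lost whichever single PC3 array was left out. Of 31 autophagy and lysosome genes 6 rose, led by ATG2A (0.90), the lysosomal membrane protein LAMP2 (0.67) and the sialidase NEU1 (0.63), while TFEB, the transcription factor of lysosomal genes, was at least 1.82-fold lower, at 18.7 and 65.2 with the compound and 146 and 227 with vehicle.

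The compound's own targets and their partners changed little. BRD2 rose 1.63-fold, with 2400.2 and 2325 at 0.5 µM and 1410.2 and 1481 in vehicle (log2 change 0.71, SE 0.10, limma adjusted p = 0.00244). BRD3 read 1818.5 and 1605 at 0.5 µM and 1709 and 1289 in vehicle, with overlapping arrays (log2 change 0.20, SE 0.17). HEXIM1 read 3117 and 3393 at 0.5 µM and 2403 and 2483 in vehicle (log2 change 0.41, SE 0.12, limma adjusted p = 0.0822), and no longer passed whichever single PC3 array was left out. Of the 17 detected genes of the BET and P-TEFb list these 2, BRD2 and HEXIM1, rose and none fell, and the median was 0.18. CDK9 and CCNT1, the kinase and cyclin of P-TEFb, had log2 changes of 0.15 and 0.29 and did not pass.

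MYC read 4280 and 3913 at 0.5 µM and 7598.5 and 7897 in vehicle, which is 1.89-fold lower and under the fold minimum (log2 change -0.92, SE 0.10, limma adjusted p = 2.75e-04). Of 38 detected c-Myc target genes 7 fell and 1 rose, with a median of -0.19, and 23 had both arrays at 0.5 µM below both vehicle arrays. Over all detected genes 4.45% fell, 6.69% rose and 30.4% had both arrays below. HK2, the first enzyme of glycolysis, was the only target called, at 1119 and 1356 with the compound and 2609 and 2645 with vehicle (log2 change -1.09, SE 0.16, limma adjusted p = 0.0021). ODC1, the rate-limiting enzyme of polyamine synthesis and a classical c-Myc target, rose by 0.50, with 26012 and 20045.5 at 0.5 µM and 16117 and 16285 in vehicle. The purine synthesis genes PAICS and GART each fell by 0.38. Genes of ribosome biogenesis had a median of -0.28, with 5 of 38 lower and none higher, and BRIX1 fell most, by 0.81. Mitochondrial ribosomal proteins had a median of -0.24, with 8 of 32 lower and none higher, of which MRPL15 fell by 0.72 (SE 0.10, limma adjusted p = 0.00218). None of 25 detected cytosolic ribosomal proteins passed, and their median was 0.04.

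The counts of these lists moved with single arrays. The number of c-Myc targets that fell was 1 without either vehicle replicate, 4 without 0.5 µM replicate 1 and 2 without 0.5 µM replicate 2. For ribosome biogenesis these counts were 1 without vehicle replicate 1, 0 without vehicle replicate 2, 2 and 3 without the replicates of 0.5 µM, and for mitochondrial ribosomal proteins 2, 1, 5 and 2 in the same order of arrays. Median centring of the arrays, which left MYC and HK2 past the threshold, left 1, 1 and 2 members of the 3 lists, and leaving out another line left 1 to 2, 1 to 2 and 2 to 3. For the 2 lists that follow, the shares over all detected genes were 4.45% lower and 6.69% higher. Of 55 genes of DNA replication origins and forks 4 fell and 3 rose, with TIMELESS, a fork protection protein, up by 0.70 and its partner TIPIN down by 0.57. Of 58 mitotic genes 5 fell, including the kinase AURKA by 0.40 and the checkpoint kinase BUB1B by 0.42, and CENPN rose. Their counts of falls went to 2 or fewer in each fit without a PC3 array.

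The number of calls rested on the variance that PC3 borrowed from the other lines. When limma was fitted on the 6 PC3 arrays, 0 probe sets were called and the smallest adjusted p was 0.183, and on the 4 arrays of the comparison 0 were called and the smallest was 0.337. The log2 changes are the same in these fits, and 1300 detected probe sets changed over 2-fold, 550 up and 750 down; 941 of these had an unadjusted p under 0.05 with 6 arrays and 925 with 4, compared with 863 in the shared fit. The errors themselves were alike, with a median SE of 0.195 in the shared fit and 0.209 in PC3 alone, whereas the residual degrees of freedom were 12 in the shared fit, 3 with 6 arrays and 2 with 4. The prior added by empirical Bayes was small, at 1.29 degrees of freedom, and without it 533 probe sets were called in the shared fit, including all 529.

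No single other line carried the calls. Without the arrays labelled LNCaP 275 probe sets were called higher and 220 lower, of which 450 were among the 529. Without the arrays labelled VCaP the counts were 276 and 214, with 435 of the 529 kept, and without NCI-H660 they were 245 and 190, with 405 kept. Using only the vehicle and 0.5 µM arrays of the 4 lines gave 258 higher and 219 lower, with 425 kept. Leaving out a PC3 array changed more of the calls. Without vehicle replicate 1, vehicle replicate 2 and 0.5 µM replicate 1 the counts of lower calls were 123, 123 and 145, and without 0.5 µM replicate 2 it was 280, while the counts of higher calls stayed between 281 and 309. Of the 529 calls 279, 306, 293 and 324 were kept in these 4 fits.

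**Figure D3:**
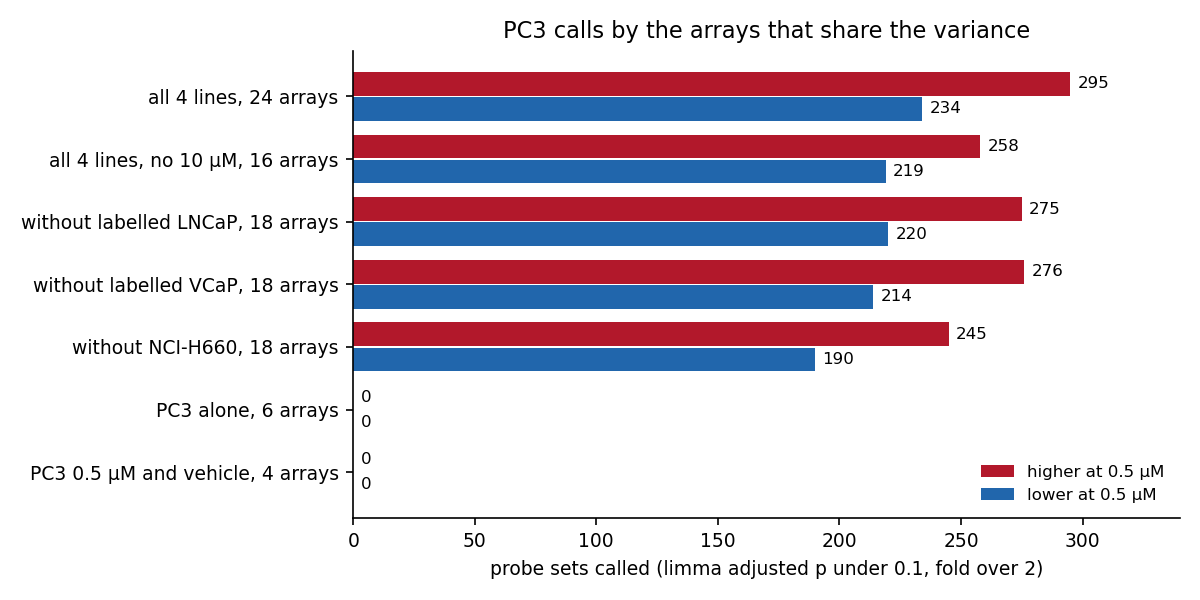
Number of probe sets called higher (red) and lower (blue) at 0.5 µM I-BET762 than in vehicle in PC3, by the arrays that entered the limma fit (rows). The fits that share the variance over several lines give 190 to 295 calls in a direction, and the fits on PC3 arrays alone give 0.

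The shared variance did not treat all genes alike. Of the 1300 probe sets that changed over 2-fold, 435 reached a mean signal of 100 in vehicle or at 0.5 µM in all 3 other lines, and 318 of these were called (73.1%). Of the 372 that reached it in none, 62 were called (16.7%), with 64 of 271 (23.6%) and 85 of 222 (38.3%) for those detected in 1 and 2 other lines. In the class detected in none, the median SD within the PC3 groups compared was 0.31 on the log2 scale. It was 0.84 in the other 10 groups, which are those of the other lines and PC3 at 10 µM, and 0.77 in the shared fit. In the class detected in all 3 the medians were 0.27, 0.23 and 0.26. The direction differed too: 301 of the 372 were lower at 0.5 µM, compared with 160 of the 435.

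**Figure D4:**
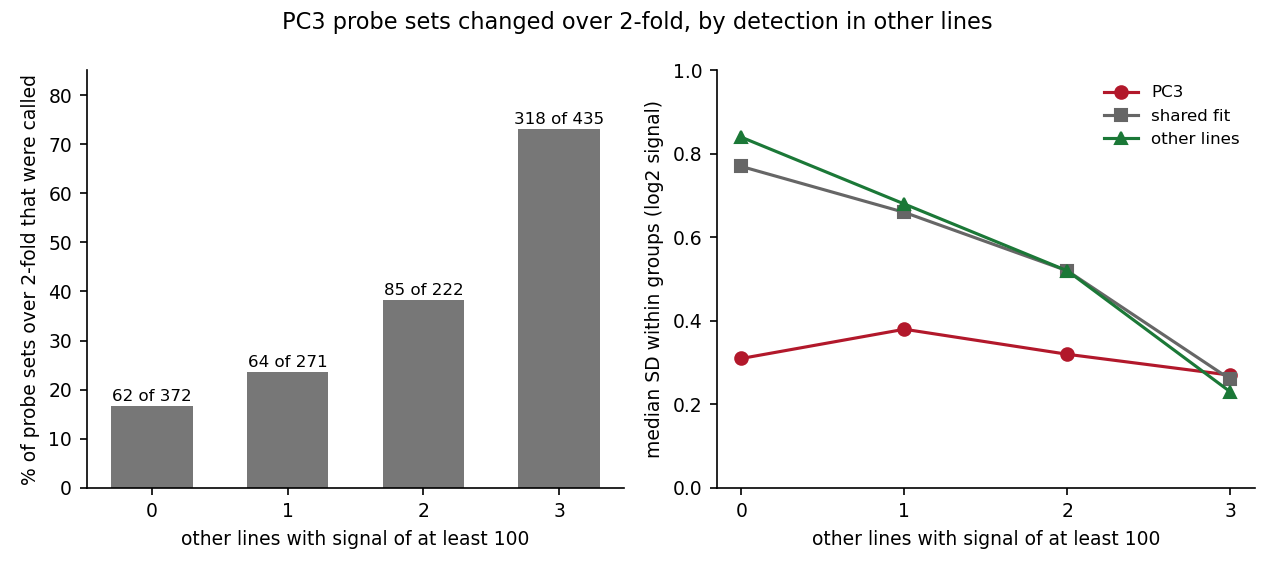
Detected PC3 probe sets that changed over 2-fold at 0.5 µM, by the number of other lines in which the probe set reached a signal of 100 (horizontal axis, both panels). The left panel gives the percentage called, with counts above the bars. The right panel gives the median SD within groups on the log2 scale. Red is the PC3 groups compared, grey the shared fit and green the other 10 groups, marked as other lines but including PC3 at 10 µM. The share called is 16.7% where no other line detected the probe set and 73.1% where all 3 did, and the SD of PC3 stays between 0.27 and 0.38 across the classes.

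PTGS2 shows the effect in a single gene. Its SD within the PC3 groups was 0.02 and the shared SD was 1.33, and on the 18 arrays of the other lines its signal lay between 0.998 and 25.9, all under the floor. In the limma fit on the PC3 arrays alone, those at 10 µM included, its unadjusted p was 4.61e-06 and its SE 0.16. That fit also used the empirical Bayes prior, so this p does not rest on the spread of 0.02 alone. KRT75, TNFRSF11B and IL1B had PC3 spreads of 0.05, 0.04 and 0.13 times the shared SD. SERPINB3, RCBTB2, F3 and MT1H went the other way, with ratios of 1.71, 1.37, 1.44 and 1.58, so the shared variance made their errors smaller than their own arrays would. Of all called probe sets 221 (41.8%) had a PC3 spread above the shared SD, compared with 30.9% of all detected, and 100 had a spread over 1.5 times it. In the opposite direction, 318 of the 771 probe sets over 2-fold that were not called had a PC3 spread under 0.5 times the shared SD. Arrays did not overlap for 699 of the 771, compared with 57.6% of all detected probe sets. Choosing probe sets by a change over 2-fold favours separate arrays, so that count is a description.

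Among genes, 36 had non-overlapping arrays, a change of at least 2.84-fold and no call; they were picked after their values were seen, and 33 of them were lower at 0.5 µM. IL13RA2, the decoy receptor for interleukin-13, read 325 and 314 at 0.5 µM and 3921.5 and 4175 in vehicle, 12.7-fold lower with nearly equal replicates, yet its shared SD was 1.23 and its limma adjusted p was 0.144. HAS2, a hyaluronan synthase, read 73.2 and 73.3 at 0.5 µM and 854 and 877 in vehicle, at least 8.655-fold lower (limma adjusted p = 0.132). Neither gene reached 100 on any of the 18 arrays of other lines. FST (follistatin), the binding protein of activin, read 7394 and 5876 at 0.5 µM and 19854 and 18596 in vehicle (log2 change -1.54, limma adjusted p = 0.568), and LXN, IGFBP3 and S100A4 had changes of -1.99, -1.61 and -1.57. RGS2, a regulator of G protein signalling, and MMP1 were 2 of the 3 that were higher. The adjusted p of the 36 ranged between 0.111 and 0.625, and 31 had a PC3 spread under 0.5 times the shared SD.

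**Figure D5:**
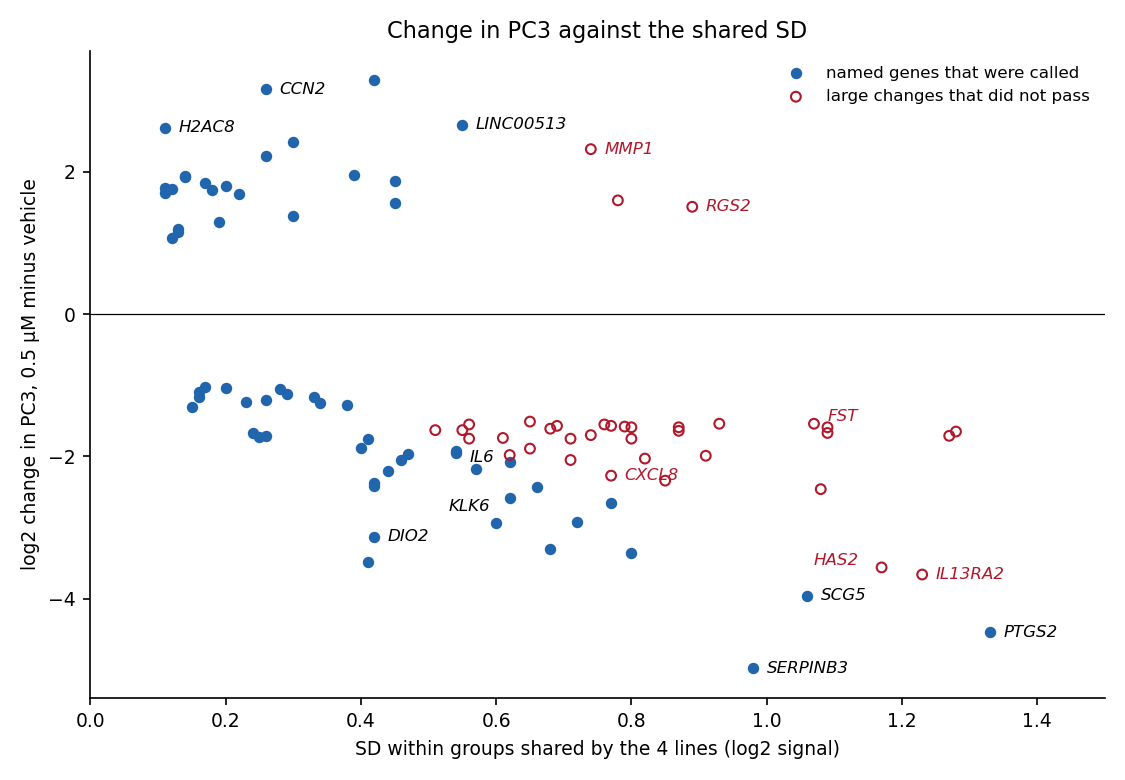
Log2 change in PC3 (0.5 µM I-BET762 minus vehicle, vertical axis) against the SD within groups shared by the 4 lines (horizontal axis, log2 signal) for the named genes that were called (filled) and the 36 genes with large changes that did not pass (open). The open points lie at a shared SD of 0.51 to 1.28, and the 15 largest rises lie at 0.11 to 0.55.

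The 15 largest rises and the 15 largest falls differed in how they depended on the fit. Of the 15 rises 13 stayed past the threshold in all 15 alternatives that kept several lines, and the exceptions were LINC00513, lost without vehicle replicate 2, and SLC12A4, lost without vehicle replicate 1 or 0.5 µM replicate 1. Of the 15 falls 3 did so, DIO2, SERPINB3 and CEACAM6. Of the other 12, F3 was lost without either vehicle replicate or without 0.5 µM replicate 1, and the other 11 were lost whichever single PC3 array was left out. The median shared SD was 0.18 for the rises and 0.62 for the falls, and the median PC3 SD was 0.12 and 0.14.

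Set against the other lines directly, 700 of the detected probe sets (2.61%) changed in PC3 by an amount that differed from the mean change on the arrays labelled LNCaP and VCaP, 406 more positive (1.52%) and 294 more negative (1.1%) in PC3 (limma contrast of changes, adjusted p under 0.1 and a difference over 1 on the log2 scale). Against NCI-H660 199 probe sets (0.743%) differed. Of the 246 called genes 67 and 53 differed; PC3's own change chose these genes and is part of the difference, so the counts are a description. CCN2 had a log2 change of 3.16 in PC3, against 1.30 in labelled LNCaP, -1.76 in labelled VCaP and -0.23 in NCI-H660, and was higher in PC3 than the labelled LNCaP and VCaP mean by 3.39 (limma adjusted p = 1.22e-04). H2AC8 rose in all 4 lines, by 2.62 in PC3 and by 1.57, 1.38 and 1.33 in labelled LNCaP, labelled VCaP and NCI-H660. Its PC3 change exceeded that of the labelled LNCaP and VCaP mean by 1.15 and that of NCI-H660 by 1.29 (limma adjusted p = 5.17e-04 and 0.00391). H3C2 also rose more in PC3 than the labelled LNCaP and VCaP mean, by 1.60 (limma adjusted p = 0.0385). For H2BC21, H2BC4, H4C5 and H4C8 the differences from the same mean were -0.30, -0.03, 0.29 and 0.57. None of these passed (limma adjusted p = 0.338, 0.956, 0.698 and 0.128), so a larger rise in PC3 did not hold for all histones. HK2 fell by 1.09 in PC3 and by 0.94 on the arrays of both labels, a difference of -0.15 (limma adjusted p = 0.797), whereas its change in NCI-H660 was 0.00, a difference of -1.09 (limma adjusted p = 0.0599).

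Arrays of PC3 at 10 µM share the vehicle arrays with the comparison above, so their values are set beside it without a test. CCN2 read 400.3 and 355 in vehicle, 3332 and 3390 at 0.5 µM and 13794 and 13488 at 10 µM. H2AC8 read 344.5 and 331.5 in vehicle, 2210.2 and 1952 at 0.5 µM and 4228 and 4444 at 10 µM. Both genes were higher on each 10 µM array than on each 0.5 µM array. PTGS2 read 3957 and 4059 in vehicle, 179 and 182 at 0.5 µM and 110.3 and 100.7 at 10 µM. IL6 read 2028 and 2442 in vehicle, 514 and 540.0 at 0.5 µM and 372 and 454 at 10 µM. MYC read 7598.5 and 7897 in vehicle, 4280 and 3913 at 0.5 µM and 4059 and 3716 at 10 µM, so its arrays at the 2 concentrations overlapped.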

How the data were processed

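RNA of PC3 cells was hybridised, as biotin-labelled cRNA, to Affymetrix U133 Plus 2.0 arrays. The authors processed the scans with MAS5 and scaled each array to a target of 500, and the deposited values are these signals, an intensity on a linear scale. Present and absent calls were not used here. Log2 signals of the 24 arrays entered one limma 3.58.1 fit (R 4.3.3) with 12 group means, with 12 residual degrees of freedom, empirical Bayes moderation and no trend, and the contrast was PC3 at 0.5 µM minus PC3 vehicle. The Benjamini-Hochberg adjustment ran over all 54613 non-control probe sets. A group mean under the floor of 100 was raised to 100 before a fold was printed as "at least". Of the probe sets, 41091 had 1 gene symbol in the platform annotation, 1801 several and 11721 none, and genes were named only from the first kind. Each gene was represented by the probe set of highest average log2 signal across the 24 arrays, and one with the suffix _x_at was taken only if the gene had no other.

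The genes named are the 15 largest rises and 15 largest falls (with means raised to the floor) among called genes whose arrays did not overlap; MYC, HEXIM1, MLKL, BCL2, BRD2 and BRD3; up to 6 members of each gene list that passed, taken by size of change; those with the smallest and largest ratio of PC3 to shared spread; and called genes with the largest tested difference from the other lines. List members that did not pass and the genes of large change without a call were named after their values were seen. The comparison, its members and the gene lists were chosen with earlier results of these data known. Some genes are not reported here. The fit was tested on simulated data. Replicate numbers were not treated as pairs in the main fit. Alternatives were the arrays that share the variance, an intensity trend, no moderation, other floors, quantile normalization, median centring, log2(signal + 50), a block for the replicate number, adjustment restricted to detected probe sets, a lower limit on the adjusted p, and each PC3 array left out in turn. Promoter sequences are from RefSeq (GRCh38.p14), and the motif search covered the 250 bases before each start.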

Additional observations from a re-analysis of the deposited data

Results flagged for a closer look

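A set of 12 genes was looked at again because limma's test of the difference found a change in PC3 at 0.5 µM unlike that in other lines, chosen as the largest such differences among called genes. Against the mean change on the arrays labelled LNCaP and VCaP, the PC3 log2 change was more positive by 3.39 for CCN2, by 3.22 for INHBB, a subunit of activin and inhibin, by 2.88 for LINC00513, by 2.78 for LOC730098 and by 2.68 for DUSP6. It was more negative for SERPINB3 (-5.46), GPR17 (-3.56), DIO2 (-3.55), IL6 (-3.30) and SLC35F1 (-3.13). Against NCI-H660 the difference was 3.58 for LOC730098, 3.49 for LINC00513 and 3.39 for CCN2 on the positive side, and -4.70 for KLK6, -3.99 for SALL4 and -3.23 for GPR17 on the negative side.

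The levels in the other lines limit what these differences hold. IL6, KLK6, SALL4, SERPINB3, GPR17 and LINC00513 were under 100 on all 18 arrays of the other lines, so their changes there are between signals under the floor. INHBB read 7996 and 7388 at 0.5 µM and 2660.2 and 2539 in vehicle in PC3 (2.96-fold higher), and on the other lines' arrays it lay between 4.16 and 255.0. DUSP6 was detected on 9 of the 18, and its log2 change was 1.38 in PC3, against -2.37 in labelled LNCaP, -0.23 in labelled VCaP and -0.13 in NCI-H660. CCN2 reached 100 on 9 of the 18 and DIO2 on 1. In PC3, GPR17 read 8.67 and 10.3 at 0.5 µM and 121 and 93.0 in vehicle. SLC35F1 read 18 and 50.6 at 0.5 µM and 134.8 and 76.7 in vehicle, with a PC3 spread 2.05 times the shared SD. LOC730098 read 134 and 111 at 0.5 µM and 10.8 and 14.5 in vehicle. GPR17, SLC35F1 and LOC730098 were each close to the floor on their higher side.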

How the results depend on the processing

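Calls fell to 0 in either direction with the 6 PC3 arrays or the 4 arrays of the comparison fitted alone. Higher calls numbered 625 with no floor, 188 with a floor of 200 and 163 with the floor in both groups, a setting chosen after seeing the data. Lower calls numbered 453, 169 and 139 in the same settings, 362 on the log2(signal + 50) scale and 153 at an adjusted p under 0.05. With single PC3 arrays left out, where the spread of the single array left is taken from the other groups, higher calls ranged between 281 and 309 and lower calls between 123 and 280. Probe sets that differed from NCI-H660 numbered 119 after centring, 440 on the log2(signal + 50) scale, 329 with a trend and 93 with the replicate block, and 128 to 231 with single PC3 arrays left out. The replicate block gave 260 higher and 188 lower calls. Deviations of equal numbers correlated at 0.04 between 0.5 µM and vehicle, so the signals showed little shared by equal numbers. The labels do not say whether the cultures were set up in pairs. The direction of 2 genes that did not pass turned without vehicle replicate 2, BCL2 (-0.44) and BRD3 (-0.0005), which ranged between -0.44 and 0.61 and between -0.0005 and 0.41 with single PC3 arrays left out; no other named gene changed direction. Of the named genes 131 passed, and all 131 still did with a trend, without moderation, after quantile normalization, on the log2(signal + 50) scale and when p was adjusted over detected probe sets. Between 30 and 40 were lost after centring, with the block, at an adjusted p under 0.05 or with fewer lines, and 49 to 71 with a PC3 array left out.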

Other observations

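Several metabolic and signalling lists held changes in both directions. The shares over all detected genes were 6.69% higher and 4.45% lower, and some counts below lie near them. Of 21 genes of polyamine and amino acid handling 3 rose and 5 fell: the polyamine-acetylating enzyme SAT1 rose by 0.68 and spermine synthase SMS fell by 0.92 on the log2 scale, and the amino acid transporter SLC43A1 read 244.5 and 269 at 0.5 µM and 822 and 874 in vehicle (3.30-fold lower, limma adjusted p = 0.00222). Asparagine synthetase ASNS rose by 0.78 while TRIB3, another gene of the ATF4 response, fell by 0.96; of 37 detected genes of that list 1 rose and 2 fell. Hypoxia and glycolysis genes split 4 against 4 among 33 detected, with VEGFA lower by 0.74 and ADM higher by 0.63. Of 28 genes of cholesterol and fatty acid synthesis, the elongase ELOVL6 fell 2.25-fold and the sterol exporter ABCG1 was at least 1.43-fold higher, at 154 and 132 with the compound and 70.3 and 48.4 with vehicle. SAT1, SLC43A1, ASNS, TRIB3, VEGFA, ELOVL6 and ABCG1 passed in all 15 alternatives that kept several lines, and ADM was lost whichever single PC3 array was left out.

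Few genes of the epithelial and mesenchymal lists passed, where 11.1% of all detected genes did. Their log2 changes ranged from -2.13 to 1.20 in the epithelial list and from -1.57 to 0.92 in the mesenchymal list. Of 30 epithelial junction and keratin genes KRT8 rose and OCLN fell, and of 33 mesenchymal genes only the matrix protein THBS1 passed (log2 change -0.97). The cell cycle inhibitors CDKN2A and CDKN2D went opposite ways, by -0.61 and 0.51. In their list 3 of 34 rose and 5 fell, compared with 6.69% and 4.45% of all detected genes. TXNIP, an arrestin-domain inhibitor of thioredoxin, rose 1.88-fold, at 13117 and 11046 with the compound and 6031 and 6804 with vehicle (limma adjusted p = 0.0022). None of 30 genes of Polycomb, DNA methylation and histone acetylation passed the limma test.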
